A study of Schizosaccharomyces pombe with 4 samples.

Results

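The RNA of the signal recognition particle, *srp7* (SPNCRNA.98), and the RNA of telomerase, *ter1* (SPNCRNA.214), were examined in fission yeast, *Schizosaccharomyces pombe*. They are 2 of the 12684 features in the count tables and were chosen by identifier, as a pair of structural RNAs made by different RNA polymerases. The libraries were prepared from vegetative haploid h- cells that the labels call wt and that all carry *leu1-32* and *pat1-L95G*::kanR, an allele of the Pat1 kinase that an ATP analogue can inhibit and that is used to set off meiosis. Cells were grown in the minimal medium EMM at 30 °C to an optical density of 0.8 to 1.0, and no inhibitor treatment is given for these samples. RNA was extracted with hot acid phenol, and 2 libraries labelled as biological replicates were made of total RNA after ribosomal RNA depletion and 2 of poly(A)+ RNA captured on oligo(dT) beads. The libraries held 25530272 to 30650533 counts, and 4 genes of meiosis, *mei4*, *rec8*, *spo5* and *ssm4*, stood at 0.0209 to 0.0477 counts per nucleotide in total RNA, where the actin gene *act1* stood at 84.4 and 80.7.

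The signal recognition particle binds ribosomes that are making a secreted or membrane protein and brings them to the translocation channel of the endoplasmic reticulum. Its RNA, called *srp7* here, is the scaffold for the proteins of the particle and is transcribed by RNA polymerase III, which ends transcription at a run of T and makes RNAs without a poly(A) tail. Telomerase adds repeats to chromosome ends, and its RNA *ter1* holds the template that the reverse transcriptase Trt1 copies. In fission yeast *ter1* is transcribed by RNA polymerase II as a polyadenylated precursor, and the first step of splicing alone cuts the precursor at the 5′ splice site to make the 3′ end of the mature RNA. The Sm ring binds next to that end and is later replaced by the Lsm ring, which stays on the mature RNA.

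The *srp7* gene lies on the plus strand of chromosome I at I:4268662-4268916, is 255 nucleotides long and has no intron. Its sequence and those that follow were read from the RefSeq assembly ASM294v3, and the whole RNA is printed because its features are those of an RNA polymerase III gene. Capitals mark GGTTCGA (nucleotides 60 to 66, counted from the first base of the gene), letters that also stand in the T-arm of many tRNAs, where they are part of the internal B box promoter.
srp7 RNA: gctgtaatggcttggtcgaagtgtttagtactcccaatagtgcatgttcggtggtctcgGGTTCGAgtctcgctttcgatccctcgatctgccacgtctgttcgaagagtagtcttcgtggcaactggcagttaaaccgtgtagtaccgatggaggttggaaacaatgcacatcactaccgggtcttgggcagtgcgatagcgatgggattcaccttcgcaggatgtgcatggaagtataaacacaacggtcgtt
The 60 bases before the gene (I:4268602-4268661) are shown with TATATAA in capitals, which begins 30 bases before the first nucleotide.
srp7 upstream: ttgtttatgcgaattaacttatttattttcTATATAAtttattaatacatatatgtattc
The 20 bases after the gene (I:4268917-4268936) are shown with their longest run of T in capitals, 7 bases long.
srp7 downstream: tcttcTTTTTTTcatgattg
GGTTCGA stood on the gene strand in the first 255 nucleotides of 63 of 11493 features at least as long as *srp7* (0.548%), on either strand in 138 of them (1.20%), and in 96 of 171 tRNA genes (56.1%). TATATAA stood in the same upstream window of 2.76% of 12637 features, and 6 or more T in a row stood in the same downstream window of 4.47% of 12635 features, both searched on the gene strand alone. The longest run of T inside *srp7* was 3 bases. A match is a description of the letters and was not tested as a functional site. None of the 205 windows of 51 nucleotides in *srp7* occurs elsewhere in the genome, and the same holds for the 1363 of *ter1*.

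The *ter1* gene lies on the minus strand of chromosome I at I:3084610-3086022 and spans 1413 nucleotides. The annotation gives it a first exon of 1207 nucleotides, an intron of 56 nucleotides at I:3084760-3084815 and a second exon of 150 nucleotides. A stretch around the template (nucleotides 203 to 259, I:3085764-3085820) is shown because its capitals, TGTAACC, are complementary to the telomeric repeat GGTTACA.
ter1 template region: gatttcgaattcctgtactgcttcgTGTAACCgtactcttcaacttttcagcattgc
The stretch around the intron (nucleotides 1185 to 1288, I:3084735-3084838) is shown because the mature RNA ends there. Capitals mark ATTTTTTGG, the Sm binding site, which runs into GTATGT, the 5′ splice site, and shares 1 base with it. They also mark TACTAAC, the branch site, and CAG, the end of the intron.
ter1 3 prime region: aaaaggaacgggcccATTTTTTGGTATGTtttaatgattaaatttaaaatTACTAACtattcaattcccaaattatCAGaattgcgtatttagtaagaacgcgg
The intron covers nucleotides 1208 to 1263, and the branch site adenosine lies 23 nucleotides before its last base. The same run of letters (ATTTTTTGG sharing its last base with GTATGT, then TACTAAC, then AG) stood in the last 220 nucleotides of 1 of 11986 features of that length or more (0.008%), which is *ter1* itself. TGTAACC stood on the gene strand in the first 1413 nucleotides of 4.77% of 4675 features at least that long. Runs of 5 or more T, of which *srp7* holds 0, occur 8 times in *ter1*. The GC content was 51% for *srp7* and 34.2% for *ter1*, beside a median of 36.7% over the features of the 3 chromosomes.

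In the total RNA libraries, *srp7* had the most counts per nucleotide of all 12684 features, and *ter1* stood above 94.9% and 94.8% of them. These libraries were depleted of ribosomal RNA. Features that the annotation classes as rRNA made up 0.389% and 0.436% of their counts and those classed as tRNA 0.00601% and 0.00479%. The rRNA share leaves out SPRRNA.02, a mitochondrial feature with an rRNA identifier, which alone had 612439 and 493416 counts in total RNA. The rank is thus one among library counts and not among the RNAs of the cell. The *srp7* counts were 275669 in replicate 1 and 242736 in replicate 2 of total RNA. Divided by the length of the gene, these are 1081 and 952 counts per nucleotide. The counts of *ter1* were 6478 and 6087, or 4.58 and 4.31 counts per nucleotide. The libraries of each pair differed little beside the distance between both RNAs, and *ter1* ranked 648th and 662nd of all features by this measure.

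In poly(A)+ RNA, both RNAs had far fewer counts and changed order. Only 10 and 20 *srp7* counts were found in replicates 1 and 2 of poly(A)+ RNA, or 0.0392 and 0.0784 counts per nucleotide. *ter1* had 216 and 288 counts there, or 0.153 and 0.204 counts per nucleotide. In these unscaled counts each poly(A)+ library lay below each total RNA library for both RNAs. The share of all features of which this holds was not counted. By counts per nucleotide, *srp7* stood above 15.3% and 17.4% of all features in the poly(A)+ libraries, and *ter1* above 28.7% and 27.3%. The share was 99.99% for *srp7* in both total RNA libraries. Set against only the features that overlap nothing on the opposite strand, *srp7* stood above 51.5% and 54.5% in the poly(A)+ libraries and *ter1* above 63.1% and 62.4%, so that their place among other features depends on which are counted.

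**Figure D1:**
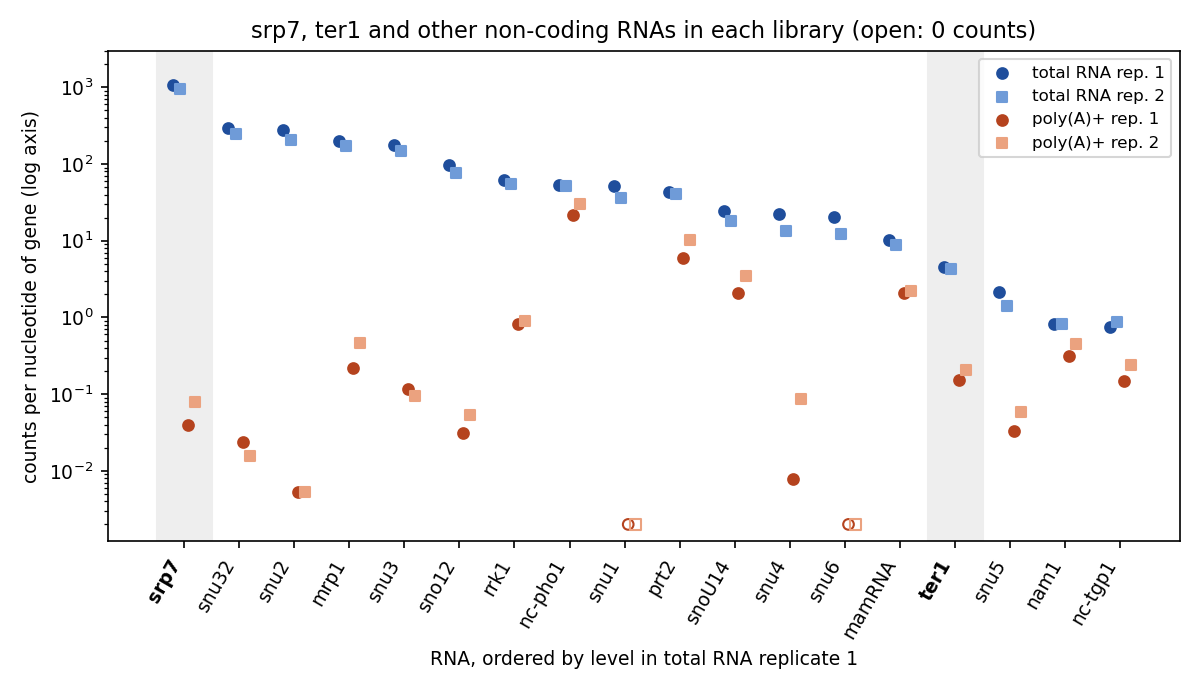
Counts per nucleotide of gene (log axis) in each of the 4 libraries for *srp7*, *ter1* (both shaded) and the other non-coding RNAs of the lists, ordered by their level in total RNA replicate 1, with open symbols at the bottom for 0 counts. *srp7* is first in total RNA at 1081 and 952, and in poly(A)+ RNA at 0.0392 and 0.0784 it lies below *ter1* at 0.153 and 0.204.

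As a share of all counts of a library, *srp7* made up 0.899% of total RNA replicate 1 (95% Wilson interval 0.896% to 0.903%) and 0.835% of replicate 2 (0.832% to 0.839%). In poly(A)+ RNA its share was 3.92e-05% (2.13e-05% to 7.21e-05%) in replicate 1 and 6.59e-05% (4.26e-05% to 0.000102%) in replicate 2. The intervals of both fractions are far apart for *srp7*, while those of the poly(A)+ replicates overlap. The share of *ter1* was 0.0211% (0.0206% to 0.0217%) and 0.0210% (0.0204% to 0.0215%) in total RNA. In poly(A)+ RNA it was 0.000846% (0.000741% to 0.000967%) and 0.000949% (0.000845% to 0.00106%). Within each fraction the *ter1* intervals of both replicates overlap. The intervals allow for counting error alone.

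For the change between fractions, edgeR's quasi-likelihood test was fitted to 11234 features after TMM scaling of the libraries. On this scale *srp7* stood at 11620 and 10860 CPM (counts scaled to the effective library size) in total RNA and at 0.319 and 0.482 CPM in poly(A)+ RNA, or 11240 ± 532 against 0.400 ± 0.115 (SD, n = 2 per fraction). It was lower in poly(A)+ RNA by a log2 fold change of -14.73 (SE 0.22, edgeR adjusted p = 2.03e-06), which is 27230-fold. *ter1* stood at 273.0 and 272.4 CPM in total RNA and at 6.89 and 6.94 CPM in poly(A)+ RNA, or 272.7 ± 0.384 against 6.91 ± 0.0355 (SD, n = 2 per fraction). Its log2 fold change was -5.30 (SE 0.13, edgeR adjusted p = 2.39e-06), which is 39.4-fold. Both RNAs passed the threshold in the lower direction, as did 35.5% of all features tested, while 49.7% were higher in poly(A)+ RNA. These shares depend on which features are counted. In a fit to 800 features that overlap nothing on the opposite strand, 215 were lower and 169 higher. The median log2 fold change over all features was -0.07 in that fit and 0.84 in the main fit. By the size of the change *srp7* was the 14th lowest of the 11234 features and *ter1* the 109th lowest.

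The scaling between fractions sets the zero of these changes. The median protein-coding gene had a log2 fold change of -0.93 with TMM factors over all features, and between -1.43 and 0.04 with the other scalings tried. Measured from that median, *srp7* was at -13.80 and *ter1* at -4.37. Expressed as the poly(A)+ level in percent of the level in total RNA, with the median protein-coding gene set to 100%, *srp7* was at 0.00700% and *ter1* at 4.84%. These percentages compare libraries of different making and are not shares of molecules that carry a poly(A) tail. The kit, the read length and the instrument differed with the fraction, so that their effects and that of poly(A)+ selection cannot be told apart.

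**Figure D2:**
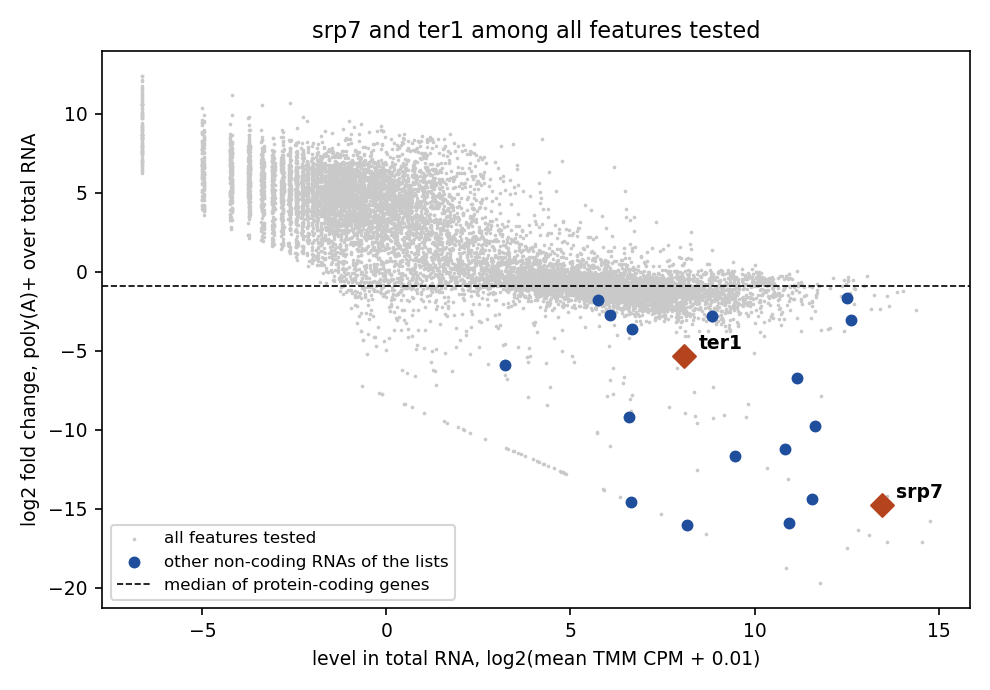
The log2 fold change of poly(A)+ over total RNA against the level in total RNA (log2 of the mean TMM-scaled CPM + 0.01) for the 11234 features tested (grey), with *srp7* and *ter1* as diamonds, the other non-coding RNAs of the lists as blue points and the median of the protein-coding genes as a dashed line. *srp7* at -14.73 lies at the lower right among the features of highest level. *ter1* at -5.30 lies between *srp7* and the dashed line at -0.93.

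A ratio of both RNAs within 1 library needs no scaling between libraries. Per nucleotide, *srp7* exceeded *ter1* by 235.8 and 221.0 times in the total RNA libraries. In the poly(A)+ libraries the ratio was 0.257 and 0.385, so that *ter1* exceeded *srp7* by 3.90 and 2.6 times. The ratios of both fractions did not overlap. The mean log2 ratio was 7.83 ± 0.07 in total RNA and -1.67 ± 0.41 in poly(A)+ RNA (SD, n = 2 each), a difference of -9.50 or 727-fold. An exact two-sided permutation test gave p = 0.33, the smallest that 2 against 2 libraries allow.

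**Figure D3:**
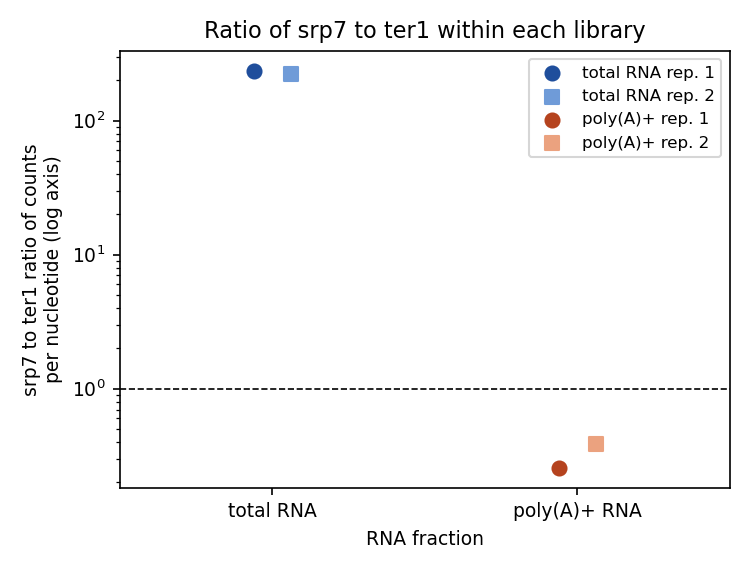
Ratio of *srp7* to *ter1* counts per nucleotide (log axis) within each library, with a dashed line where both are equal. Both total RNA libraries lie at 235.8 and 221.0 and both poly(A)+ libraries below the line, at 0.257 and 0.385.

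Both genes overlap features on the opposite strand, and this bears on the poly(A)+ values. SPNCRNA.3909 lies on the minus strand at I:4268672-4268917 and covers 96.1% of *srp7*. It had 871 and 665 total RNA counts and 26 and 34 poly(A)+ counts, so that it had fewer counts than *srp7* in the first fraction and more in the second. In percent of the *srp7* counts these are 0.316% and 0.274% in total RNA, against 260% and 170% in the poly(A)+ libraries. SPNCRNA.3382 (I:3084455-3085336) and SPNCRNA.3383 (I:3085445-3085959) lie on the plus strand and together cover 87.9% of *ter1*. SPNCRNA.3382 had 23 and 33 total RNA counts and 99 and 157 poly(A)+ counts. SPNCRNA.3383 had 25 and 17 total RNA counts and 104 and 115 poly(A)+ counts. Their sum was 0.741% and 0.821% of the *ter1* counts in total RNA, against 94.0% and 94.4% in the poly(A)+ libraries.

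In poly(A)+ RNA the features annotated on the opposite strand thus had nearly the counts of *ter1* and more than those of *srp7*. SPNCRNA.3909 had more although it shares 245 of its 246 nucleotides with *srp7*. For 2918 long non-coding RNAs that lie within 1 protein-coding gene on the opposite strand, counts per nucleotide were divided by those of the host gene, and the median of this ratio was 0.0110 and 0.0109 for the total RNA libraries and 1.31 and 1.28 for the poly(A)+ libraries. How reads were assigned to strands and to overlapping features in poly(A)+ RNA is not given in the sources used here. The poly(A)+ counts of *srp7*, of *ter1* and of the features opposite to them may thus include reads of either strand. How many was not tested. With the counts of both strands summed in all libraries, an alternative added after the data had been seen, *srp7* was at a log2 fold change of -13.16 and *ter1* at -4.36, and the log2 ratio between them differed by -8.82 between the fractions. Both RNAs then still passed the edgeR threshold, with adjusted p of 1.23e-06 and 2.78e-06. Where a read was counted for features on both strands, the sum holds it more than once. This alternative therefore cannot separate the strands, and how many reads it counts so was not tested.

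The nearest genes on either side did not share the levels of the RNAs between them. Left of *srp7*, *cor1* ends 582 nucleotides away and had 5105 and 4905 total RNA counts and 5650 and 6070 poly(A)+ counts. To the right, *rcm1*, annotated as an rRNA methyltransferase, begins 192 nucleotides away and had 325 and 380 counts against 162 and 382. Next to *ter1*, SPAC16A10.03c, a gene for a Pep5/Vps11-like protein, lies 316 nucleotides from its 3′ end and had 2188 and 2456 counts against 1034 and 1490. A lysine tRNA gene, SPATRNALYS.05, lies 287 nucleotides from its 5′ end and had 4 and 2 counts in total RNA and 0 in both poly(A)+ libraries.

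**Figure D4:**
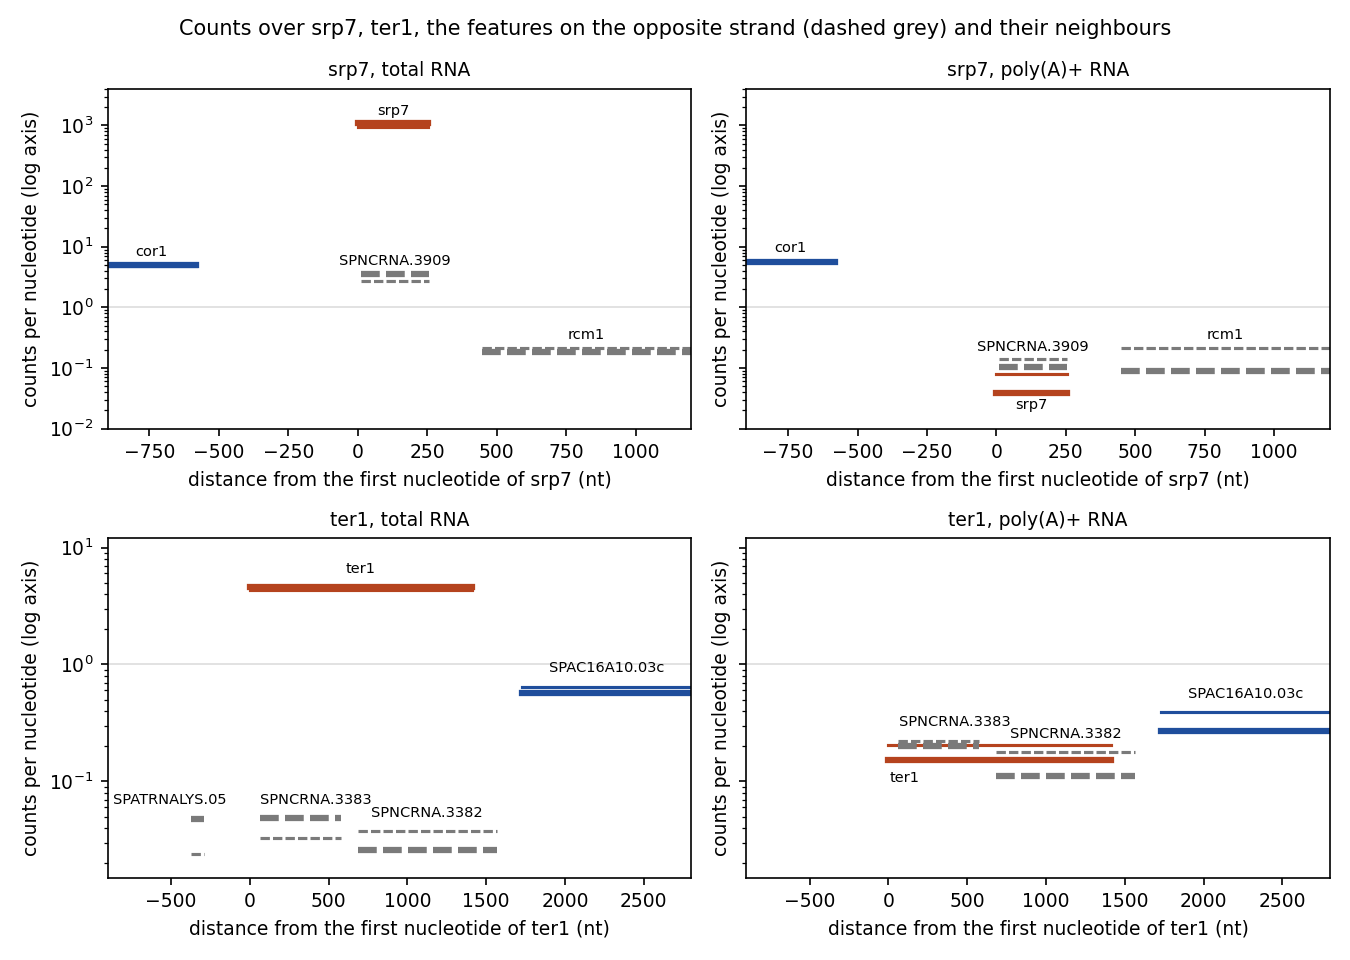
Counts per nucleotide (log axis) against the distance from the first nucleotide of *srp7* (upper panels) or *ter1* (lower panels), in total RNA (left) and poly(A)+ RNA (right), with 1 segment per feature and library (thick for replicate 1, thin for replicate 2). The members are red, features on the same strand blue and features on the opposite strand dashed grey. In poly(A)+ RNA *srp7* lies below the feature on its opposite strand and *ter1* level with those opposite to it, and in total RNA both lie far above them.

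Other structural RNAs were lower in poly(A)+ RNA as well. The spliceosomal RNAs, the U3 RNAs *snu3* and *snu32*, which guide rRNA processing, and the snoRNAs *sno12* and *snoU14* formed a list of 8 RNAs made by RNA polymerase II, of which 8 were lower (35.5% of all features tested), with a median log2 fold change of -11.43 (0.84 over all features tested). U1 (*snu1*) had 7797 and 5443 counts in total RNA and 0 in both poly(A)+ libraries, at least 3410-fold lower against a floor of 3 counts per library. U2 (*snu2*) had 52133 and 38836 counts against 1 and 1. U4 (*snu4*) had 2811 and 1692 counts against 1 and 11, and U5 (*snu5*) 261 and 168 against 4 and 7. Poly(A)+ counts of 0 or 1 were thus found among products of RNA polymerase II too.

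The RNAs of RNase P (*rrk1*), which trims tRNA 5′ ends, and of RNase MRP (*mrp1*), which cleaves precursor rRNA, and the U6 spliceosomal RNA (*snu6*) were also lower, 3 of 3 (35.5% of all features). U6, an RNA polymerase III product, had 2893 and 1755 counts in total RNA and 0 in both poly(A)+ libraries, at least 1190-fold lower. *mrp1* had 78749 and 68793 counts against 87 and 186, a log2 fold change of -9.77 (SE 0.29). *rrk1* had 54941 and 49589 counts against 738 and 800, a log2 fold change of -6.73 (SE 0.16). No further split of these RNAs by polymerase was made. The longest run of identical bases that the U3 genes share is 31 nucleotides, and a division of reads between *snu3* and *snu32* was not tested.

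Long non-coding RNAs with known functions lay closer to the coding genes. Of the 5 found, 5 were lower (35.5% of all features tested), with a median log2 fold change of -2.76. They were *prt2* (-3.06), *mamRNA* (SPNCRNA.1715, -2.78), *nc-tgp1* (-2.76), *nam1* (-1.77) and *nc-pho1* (-1.67), the transcript upstream of the phosphatase gene *pho1*. *mamRNA*, which the RNA elimination factor Mmi1 binds, had 11420 and 9841 total RNA counts and 2345 and 2450 poly(A)+ counts. Its feature contains the whole of *snoU14* on the same strand. The authors report a further snoRNA in an intron of *mamRNA* and assign the effect of *mamRNA* on Mmi1 activity to that snoRNA. The counts and the log2 fold change given for *mamRNA* may thus include reads of both snoRNAs, which was not tested.

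Among these 18 non-coding RNAs, ordered by log2 fold change, *srp7* was among the 5 lowest and *ter1* was 12th, with *snoU14* and the 5 long non-coding RNAs above it. *snu32*, which had 75782 and 63166 counts against 6 and 4, was at -14.37 and differed from *srp7* by 0.36 with a combined SE of 0.35. *sno12*, with 18308 and 14586 counts against 6 and 10, was at -11.64, above *srp7* by 3.09 with a combined SE of 0.31. *snu3*, with 45632 and 37544 counts against 30 and 24, was at -11.22. *ter1* differed from U5, at -5.91, by 0.61 with a combined SE of 0.45. *rrk1* lay below *ter1* by 1.43 (combined SE 0.21), and *snoU14*, with 2706 and 2050 counts against 230 and 385, lay above it at -3.63, by 1.67 (combined SE 0.24). Per nucleotide, *snoU14* had 2.05 and 3.44 poly(A)+ counts and the *mamRNA* feature around it 2.1 and 2.2, and whether these are reads of the same transcript was not tested. *prt2* lay above *ter1* by 2.24 (combined SE 0.20). The distance to *snu32* for *srp7* and that to U5 for *ter1* are thus close to the size of their errors. The combined SE is the root of the summed squares of both standard errors, and these differences were not tested. Of the 8 structural RNAs of RNA polymerase II, 4 overlap a feature on the opposite strand, U5 among them and *snu32* not. So do 2 of the 3 RNAs of U6, RNase P and RNase MRP and 4 of the 5 long non-coding RNAs. The part of those features in the poly(A)+ counts, and so in this order, was not tested.

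**Figure D5:**
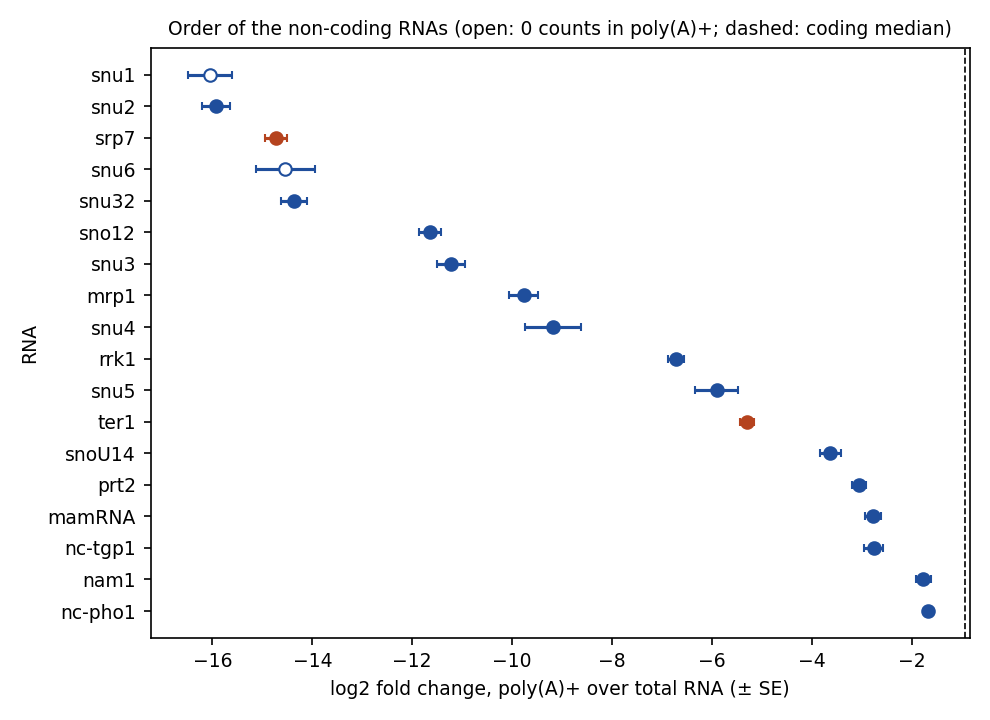
Log2 fold change of poly(A)+ over total RNA with its standard error for 18 non-coding RNAs, with *srp7* and *ter1* in red, open points for RNAs with 0 counts in poly(A)+ RNA (whose fitted values are no bounds) and a dashed line at the median of the protein-coding genes. *srp7* at -14.73 lies beside *snu32* at -14.37, and *ter1* at -5.30 lies between U5 at -5.91 and *snoU14* at -3.63.

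By level in total RNA, *srp7* was first and *ter1* was 15th of the same 18 RNAs in both libraries. The next below *srp7* was *snu32* with 297 and 248 counts per nucleotide, so that their replicates did not overlap. *ter1* lay below *mamRNA* (10.2 and 8.76 counts per nucleotide) and above U5 (2.17 and 1.40 counts per nucleotide), and neither pair overlapped. The annotated lengths of the 18 RNAs ranged from 112 to 3429 nucleotides, and a part of RNA length in these levels was not tested.

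Features with a like pattern over the 4 libraries were sought among 803 that overlap nothing on the opposite strand, by the Euclidean distance of log2(TMM-scaled CPM per kilobase + 0.5). The nearest to *srp7* was SPRRNA.51, a 5.8S ribosomal RNA, at a distance of 2.80, with 47375 and 41465 counts in total RNA, against 3 and 13 in poly(A)+ RNA. It was followed by *snu32* (3.09) and by SPRRNA.02, a mitochondrial feature (3.17), with 612439 and 493416 counts against 8 and 4. The features nearest to *ter1* were annotated as small RNAs. The first was *snR94*, a box H/ACA snoRNA, at 1.20, with 1614 and 1689 counts against 38 and 38, then *snoR69b* (1.56), with 227 and 185 counts against 8 and 18, and *snR48* (2.12), with 132 and 139 counts against 15 and 32. The distances are descriptions over 4 libraries.

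The mRNAs for the proteins that work with *srp7* lay near the median coding gene. Of 8 mRNAs for proteins of the particle and its receptor, 7 were lower (35.5% of all features tested), 0 higher (49.7%) and 1 did not pass the test, with a median log2 fold change of -0.98, or -0.05 from the median coding gene. The lowest was *srp54*, for the GTPase that binds the signal sequence, at -1.66 (SE 0.18). The highest that passed was *srp68*, for a protein bound to *srp7*, at -0.36 (SE 0.13). *sec65* had a log2 fold change of -0.29 (edgeR adjusted p = 0.0759). Per nucleotide, *srp7* exceeded these 8 mRNAs by 587 to 1665 times (median 861) and 553 to 1673 times (median 876) in the total RNA libraries. In the poly(A)+ libraries it was at 0.0240 to 0.116 (median 0.0530) and 0.0333 to 0.151 (median 0.0731) of their level.

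A wider list of mRNAs around translocation into the endoplasmic reticulum gave a like picture. Of 11 mRNAs found, 10 were lower (35.5% of all features), 0 higher (49.7%) and 1, *sec66* (edgeR adjusted p = 0.119), did not pass, with a median of -1.08. *sec61*, for the channel itself, was lowest at -1.77 (SE 0.10), and *sbh1*, for its beta subunit, was the highest that passed at -0.46 (SE 0.13). With TMM factors from protein-coding genes alone, only 1 of the 8 particle mRNAs and 2 of the 11 translocation mRNAs were lower, and 2 of each were higher, so that the direction of these lists follows the scaling. At an unadjusted edgeR p under 0.05, and by DESeq2, 0 of either list were higher.

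Of 24 mRNAs for telomerase proteins and factors of *ter1* maturation, 21 were lower (35.5% of all features), 2 higher (49.7%) and 1, *smd2* (edgeR adjusted p = 0.0944), did not pass, with a median of -0.89, or 0.04 from the median coding gene. *trt1*, for the reverse transcriptase, had 912 and 936 total RNA counts and 492 and 600 poly(A)+ counts, a log2 fold change of -1.41 (SE 0.16). *dis3*, for a nuclease of the exosome, was lowest at -1.76 (SE 0.14). *smf1*, for a subunit of the Sm ring, was highest at 0.84 (SE 0.14), and *lsm4*, for a subunit of the Lsm ring, was at 0.42 (SE 0.12). With DESeq2's size factors neither passed the test as higher, and without either total RNA library 1 was. With TMM factors from protein-coding genes 2 were lower and 5 higher.

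Per nucleotide, *ter1* was above each of these 24 mRNAs in both total RNA libraries. The ratio ranged from 1.33 to 24.9 (median 4.42) in replicate 1 and from 1.40 to 22.1 (median 4.15) in replicate 2. To the mRNA of its partner *trt1* it was 18.3 and 16.8. In poly(A)+ RNA the median ratios were 0.190 and 0.164, and *ter1* was above 3 and 1 of the 24. The ratio to *trt1* was 1.13 and 1.24 there. Of the 24 mRNAs, 20 overlap a feature on the opposite strand, as do 7 of the 8 particle mRNAs and 9 of the 11 translocation mRNAs.

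Telomere proteins, which recruit and restrain telomerase, had the widest range of the 4 mRNA lists. Of 12 mRNAs 9 were lower (35.5% of all features) and 3 higher (49.7%), with a median of -1.12. Scaled by library totals 5 were lower, and scaled by TMM on protein-coding genes 3 were lower and 3 higher. *tel1*, for a checkpoint kinase, was lowest at -3.12 (SE 0.14), with 4276 and 4243 counts against 623 and 936. *pot1*, for the protein that binds the single-stranded end, was highest at 2.69 (SE 0.14), with 648 and 539 counts against 5363 and 6687. *tpz1* (1.83, SE 0.13) and *poz1* (0.80, SE 0.15), for its partners in shelterin, were also higher. All 12 overlap features on the opposite strand, and the part of those in the poly(A)+ counts was not tested.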

How the data were processed

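Counts of 4 libraries were analysed. The authors trimmed reads with Cutadapt 1.15 or fastp 0.23.1, aligned them with STAR 2.6.1d and deposited raw featureCounts (Subread 2.0.6) counts per feature. The genome build and the strand option are not given in the sources used here. The header of each table has 9 cells over 8 fields, so the deposited counts were taken by position, those of replicate 1 lying under a name of other meaning. Features were joined by identifier to RefSeq ASM294v3 (99.4% matched, with 12594 of 12602 starts and 12601 ends equal).

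The comparison of fractions used glmQLFit and glmQLFTest of edgeR 4.0.16 (R 4.3.3) with TMM factors and filterByExpr, at an adjusted p under 0.05 over 11234 features. The standard error is the log2 fold change over the root of F. The fit was tested on simulated data, in which 190 of 200 genes changed by 2 on the log2 scale were recovered with 5 false calls. The simulation held 11079 features, changed in both directions and with a common dispersion. Far more features passed the threshold in these data, a setting that the simulation does not cover. Ratios, shares and permutation tests used Python 3.11.15 and scipy 1.17.1. Replicates of a fraction differed by more than sampling noise (chi-square per degree of freedom 8.60 and 114).

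Named genes are both RNAs, their overlapping and nearest features, the 3 nearest patterns of each, every RNA of the non-coding lists, and in the mRNA lists the highest and lowest past the threshold. Other list members given were chosen after their values were seen, as were the 4 meiosis genes and *act1*. The members and lists were chosen with earlier results of these data known. Of the lists, *ssh1* and *sme2* were not matched and are not analysed here. Alternatives were other scalings, DESeq2 1.42.0, other filters, a replicate block, libraries left out, and other denominators and lengths.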

Additional observations from a re-analysis of the deposited data

How the results depend on the processing

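Both RNAs stayed lower in poly(A)+ RNA and past the threshold under the 12 alternatives that gave each a value. The log2 fold change ranged from -15.24 to -13.16 for *srp7* and from -5.80 to -4.33 for *ter1*, and measured from the median coding gene from -14.12 to -12.23 and from -4.38 to -3.42. The ends at -13.16, -12.23 and -3.42 come from the sum of both strands, which may hold reads more than once. Without 1 library at a time, it ranged from -15.10 to -14.42 for *srp7* and from -5.33 to -5.22 for *ter1*, and their log2 ratio differed between the fractions by -9.80 to -9.21. Both RNAs overlap opposite-strand features, so the test without such features gives no value for them.

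The numbers of features past the threshold followed the scaling and the set of features kept. In place of 5586 higher and 3992 lower, library totals gave 6370 and 1906, TMM factors from protein-coding genes 6852 and 1430, DESeq2's size factors 5268 and 4758, and features without opposite-strand overlap 169 and 215 of 800. Over the lists, in place of 5 higher and 63 lower, library totals gave 7 and 32, TMM factors from protein-coding genes 12 and 24, DESeq2's size factors 2 and 66, the DESeq2 test 2 and 66, and features without opposite-strand overlap 0 and 7. Without 1 library at a time, the ranges were 5280 to 5696 and 3319 to 4296 over all features, and 4 to 5 and 53 to 66 over the lists. With protein-coding genes alone as the denominator, the mean share of *srp7* was 1.01% in total and 7.58e-05% in poly(A)+ RNA, and that of *ter1* 0.0244% and 0.00129%. The mean percentile of *srp7* moved from 99.99 to 99.9 by counts and to 100 among features without opposite-strand overlap in total RNA, and from 16.4 to 13.3 and 53.0 in poly(A)+ RNA. That of *ter1* moved from 94.8 to 93.5 and 88.3, and from 28.0 to 36.0 and 62.7. The cause was not tested.

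Same-numbered libraries did not deviate together (r = -0.02 across 11234 genes, which are not independent replicates). This cannot show whether they came from the same cultures, because noise of the library preparation could hide a shared deviation. The labels give only a replicate number. A replicate block gave -14.74 for *srp7*, -5.30 for *ter1*, -9.50 for the difference of their log2 ratio, 5518 higher and 3900 lower features, and 5 and 62 in the lists. The 10 and 20 counts of *srp7* in poly(A)+ RNA limit the precision of its change.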
